A study of Homo sapiens with 45 samples.

Results

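The neural and neuroendocrine markers described here are 10 genes chosen by name: NCAM1, ENO2, SYP, CHGA, TUBB3, NEFL, NEFM, NES, NGFR and S100B. They are 10 of 41578 genes to which the transcripts of 45 poly(A) RNA libraries were joined. The libraries came from human tumour cell lines, with 3 libraries per line or condition. Of the 13 lines, 7 are from Ewing sarcoma (TC71, SKES1, RDES, MHHES1, EW24, EW3 and A673) and 6 from osteosarcoma (U2OS, SAOS2, MG63, KHOS, HOS-MNNG and G292), and the labels name no treatment for them. The other 6 libraries came from A673 with sh908, an inducible hairpin that targets the potassium channel gene KCNN1, either not given doxycycline (uninduced) or given the drug, which switches the hairpin on (induced). All sh908 libraries are from 1 parental line, and no hairpin against another sequence is analysed here. Each line is a single established culture, and HOS-MNNG and KHOS both descend from the HOS line.

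Ewing sarcoma arises in bone or soft tissue, carries a fusion between EWSR1 and a gene for an ETS transcription factor, and often shows some neural traits. Osteosarcoma is a bone-forming tumour. The genes mark several neural programmes: cell adhesion, neuronal glycolysis, synaptic vesicles and hormone granules, the neuronal and progenitor cytoskeleton, neurotrophin sensing and glia. Pathologists stain for several of their products when they look for neural or neuroendocrine differentiation, although none is restricted to nerve cells.

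Levels are given in TPM, the abundance of a transcript relative to all transcripts of its library after correction for length, so genes can be compared with each other on this scale. Fold changes on the log2 scale come from models of counts, while permutation tests and ratios within pairs use TPM. Library totals ran from 15974173 to 51413254 estimated counts. Nothing in the labels says that the libraries of a line came from separate cultures, so their spread may be technical. A lower value in bulk RNA can mean fewer cells with the transcript or less of it per cell, and the data cannot tell these apart. The labels were checked against marker lists. Of 6 Ewing sarcoma markers, the transcription factor gene NKX2-2 and the surface protein gene STEAP1 were higher in every Ewing line than in every osteosarcoma line. Their means were 70.6 against 1.78 TPM and 191.5 against 27.2 TPM. NR0B1 was also called higher (edgeR FDR 0.027), with line means that overlapped: 0.651 TPM in MHHES1 and 0.316 TPM in RDES against 2.45 TPM in U2OS. CCND1, PAX7 and CD99 were not called (edgeR FDR 0.134, 0.105 and 0.309). These 4 were named after their values were seen. Of 8 osteoblast lineage genes, RUNX2, COL1A1 and SPP1, named after their values were seen, were lower in the Ewing lines, with line means that overlapped. The summed level of 6 markers of blood, endothelial, epithelial and melanocytic cells was 0.795 to 24.9 TPM in the Ewing lines and 1.86 to 28.2 TPM in the osteosarcoma lines, and CD3E, a T cell marker, was at 0 in 12 of the 13 lines. Of these markers the melanocyte gene PMEL was called higher in the Ewing lines (5.75 against 0.369 TPM, edgeR FDR 0.021) and the endothelial gene PECAM1 lower (0.115 against 0.638 TPM, edgeR FDR 0.00687), both named after their values were seen. Their part in the results was not tested.

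Replicate 3 of both sh908 groups stood apart from replicates 1 and 2. The first principal component of the 6 sh908 libraries held 82.0% of their variance and separated replicate 3 from the rest, whatever the doxycycline state. REST, which encodes a repressor of neuronal genes, was at 1.55, 1.34 and 8.34 TPM in uninduced replicates 1, 2 and 3, against 8.51, 7.51 and 7.66 TPM in parental A673. KCNN1 itself, the target of the hairpin, was at 31.97, 38.9 and 37.2 TPM in parental cells, at 37.8, 35.3 and 17.99 TPM without doxycycline and at 10.2, 13.7 and 7.75 TPM with it. It was lower in the induced library of all 3 pairs, at a mean of 0.348 times the uninduced level.

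Between the tumour types, SYP, CHGA and NEFM were higher in the Ewing lines. TUBB3, the most abundant marker in 9 of the 13 lines, was not called, nor were ENO2, NES, NCAM1, NEFL and NGFR. The comparison used the 13 lines as samples, with an edgeR quasi-likelihood model of summed counts and a false discovery rate (FDR, the Benjamini-Hochberg adjusted p over all genes tested) under 0.05 as the call. Of all 21998 genes tested, 14.4% were called, with 5.97% of tested genes higher and 8.4% lower in the Ewing lines. Of the 10 markers, 9 passed the filter on low counts, 3 were called higher and 0 lower. CHGA and NEFM, with 43 and 54 counts in all osteosarcoma libraries together, could pass that filter only with the Ewing lines. Their passing it therefore adds no support, and the permutation test given below called neither. The median log2 fold change of the 9 was 1.02, beside -0.06 over all genes tested. Line means did not overlap between the types for 5.58% of genes tested and for 0 of these 9.

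**Figure D1:**
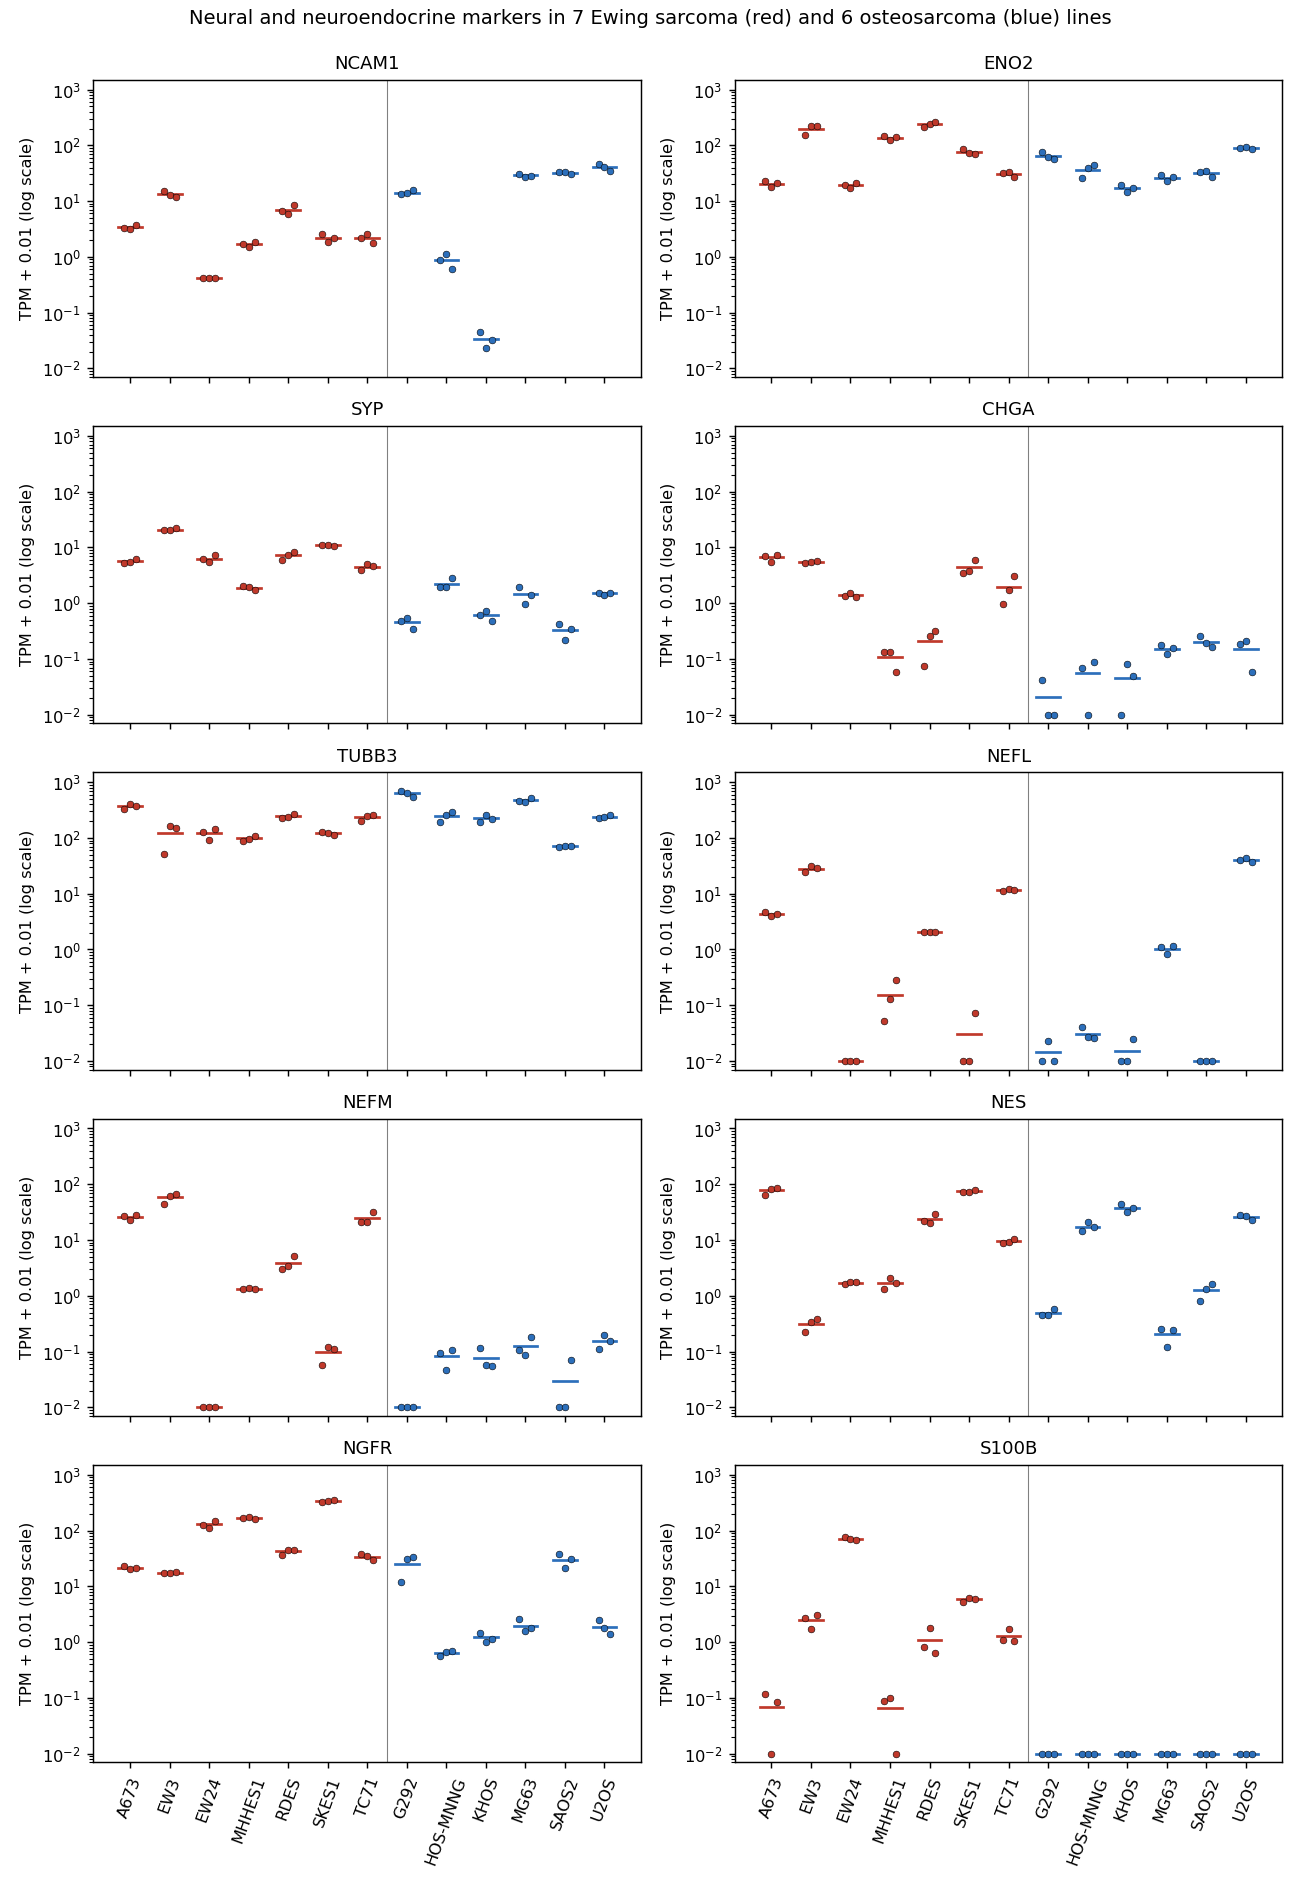
Each panel plots TPM plus 0.01 on a log axis for 1 marker, with 3 points per line for its libraries and a bar at their mean. The line means of Ewing (red) and osteosarcoma lines (blue) overlap for 9 markers. They do not overlap for S100B, which had a count of 0 in all 18 osteosarcoma libraries. For A673 and MHHES1 this rests on 3 and 2 S100B counts in all.

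**Figure D2:**
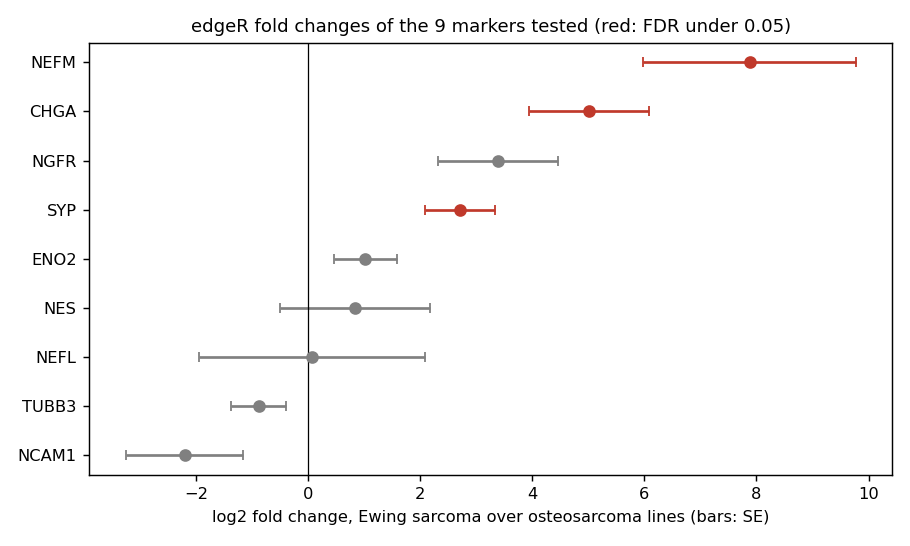
Points give the edgeR log2 fold change of the 9 markers tested, Ewing over osteosarcoma lines, and bars its standard error. NEFM, CHGA and SYP (red) passed an FDR of 0.05, and NGFR, at an FDR of 0.0501, did not.

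SYP encodes synaptophysin, a membrane protein of synaptic and neuroendocrine vesicles (GRCh38.p14 chrX:49187815-49200193). Its line means in the Ewing lines were 1.90 TPM at the lowest, in MHHES1, 6.30 at the median and 20.8 at the highest, in EW3. In the osteosarcoma lines they were 0.319 TPM in SAOS2, 1.01 at the median and 2.24 in HOS-MNNG. In line means the types met only at MHHES1 (2.01, 1.94 and 1.74 TPM) and HOS-MNNG (1.95, 1.96 and 2.80 TPM), and 6 of 7 Ewing lines lay above every osteosarcoma line. The log2 fold change was 2.72 (SE 0.62, edgeR FDR 0.0119). An exact permutation test of log2(TPM + 1) over the 1716 ways to divide the lines, adjusted over all genes tested, gave an adjusted p of 0.0256. SYP was the 1 marker called by both tests. Its widely expressed relative SYPL1, a paralog of other cell types, was at 65.3 to 128 TPM in all 13 lines and was not called.

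CHGA encodes chromogranin A, an acidic protein packed into dense-core hormone granules (chr14:92922664-92935285). The lowest, median and highest Ewing line means were 0.0963 TPM in MHHES1, 1.92 in TC71 and 6.68 in A673. The osteosarcoma means were 0.0109 TPM in G292 at the lowest, 0.0932 at the median and 0.193 in SAOS2 at the highest, from 43 counts in all 18 libraries. A673 (7.15, 5.48 and 7.42 TPM) and EW3 (5.30, 5.54 and 5.71 TPM) were high in each library, MHHES1 (0.121, 0.121 and 0.0476 TPM) fell within the osteosarcoma range, and RDES (0.0632, 0.246 and 0.303 TPM) lay just above it in its mean. Its log2 fold change was 5.01 (SE 1.08, edgeR FDR 0.00866). The exact permutation test gave an adjusted p of 0.0606, which misses the threshold.

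Promoters of SYP and CHGA are shown because they were called higher together. RefSeq (GRCh38.p14) gave promoter sequences for 5 of the 10 markers: ENO2, SYP, CHGA, TUBB3 (which has 2 starts) and NES. Each line is the 250 bases before a listed start, 5′ to 3′ on the strand of the gene. The CHGA window lies inside the gene span given above, so the start it precedes is not the first base of that span. Capitals mark the GC box GGGCGG (or CCGCCC on the other strand) and the core of the cAMP response element, TGACGT (or ACGTCA).
CHGA, chr14:92922900-92923149, plus strand: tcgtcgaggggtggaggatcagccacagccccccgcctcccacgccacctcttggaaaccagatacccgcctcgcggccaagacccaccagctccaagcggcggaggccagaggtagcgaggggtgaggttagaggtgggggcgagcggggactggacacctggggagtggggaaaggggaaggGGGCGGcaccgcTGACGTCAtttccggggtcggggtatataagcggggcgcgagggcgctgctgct
SYP, chrX:49200194-49200443, minus strand: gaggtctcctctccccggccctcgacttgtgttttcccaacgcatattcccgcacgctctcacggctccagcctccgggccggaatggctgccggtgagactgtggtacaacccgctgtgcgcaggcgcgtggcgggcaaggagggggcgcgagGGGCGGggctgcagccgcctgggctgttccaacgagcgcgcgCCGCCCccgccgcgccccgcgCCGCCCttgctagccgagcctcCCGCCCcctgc

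In the CHGA promoter the cAMP response element core occurred on both strands, overlapping at positions -54 and -52 from the start, with 1 GC box at -66. None of the other marker promoters held that core, which was in 7.10% of all 35116 RefSeq promoter windows of the same length. The SYP promoter held 4 GC boxes, at -96, -54, -33 and -11, and a GC box was in 42.6% of all windows. A tandem of GGAA, the core letters bound by ETS factors (GGAAGGAA or TTCCTTCC, in 3.06% of windows), and a 9-letter part of the REST site (TTCAGCACC or GGTGCTGAA, in 0.288%) were in none of the marker promoters. A match of letters is a description of these windows and not a measured binding site.

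The neurofilament light and medium chains, from NEFL and NEFM, assemble into the intermediate filaments of axons. Their genes are neighbours on chromosome 8 (chr8:24950955-24956612 and chr8:24913761-24919093), 31861 bases apart. NEFM reached 44.7, 61.2 and 68.0 TPM in EW3, 27.4, 22.5 and 28.3 TPM in A673 and 20.7, 21.04 and 31.9 TPM in TC71. It was lower in RDES (3.03, 3.38 and 5.11 TPM) and MHHES1 (1.30, 1.35 and 1.33 TPM), near the osteosarcoma level in SKES1 (0.0469, 0.113 and 0.103 TPM), and had a count of 0 in all 3 EW24 libraries. All osteosarcoma libraries together held 54 NEFM counts, and their line means ran from 0 in G292 to 0.145 TPM in U2OS. The Ewing lines therefore split into 5 with over 1 TPM and 2 without, and 5 of 7 lay above every osteosarcoma line. The log2 fold change was 7.88 (SE 1.90, edgeR FDR 0.0151), and the exact permutation test gave an adjusted p of 0.137.

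NEFL did not separate the types. It was at 24.8, 30.9 and 28.6 TPM in EW3 and at 11.2, 12.2 and 11.6 TPM in TC71, but its highest level was in the osteosarcoma line U2OS, with 40.6, 42.9 and 36.6 TPM. MG63 followed among the osteosarcoma lines with 1.11, 0.831 and 1.155 TPM, and the other 4 had means of at most 0.0210 TPM. Between the types its log2 fold change was 0.07 (SE 2.02, edgeR FDR 0.986). Without U2OS it was 4.76, still not called (edgeR FDR 0.185). The count of 0 in EW24 and in SAOS2 allows up to 3 counts over the 3 libraries of a line, or 0.0309 and 0.0325 CPM of those libraries, which covers counting error only.

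The balance of the 2 neurofilament chains differed between the lines. In the 5 Ewing lines with over 1 TPM of NEFM, its mean level was 1.86 (RDES) to 9.21 times (MHHES1) that of NEFL, the last from 21 NEFL counts. In U2OS the order was the opposite in each library: NEFL stood at 275 times NEFM, from 6080 against 19 counts. MG63 had 8.85 times more NEFL than NEFM, from 120 against 11 counts. The ranks of the 2 genes still went together over the lines (Spearman rho 0.883 over 13 lines, which share the libraries from which both were read).

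**Figure D3:**
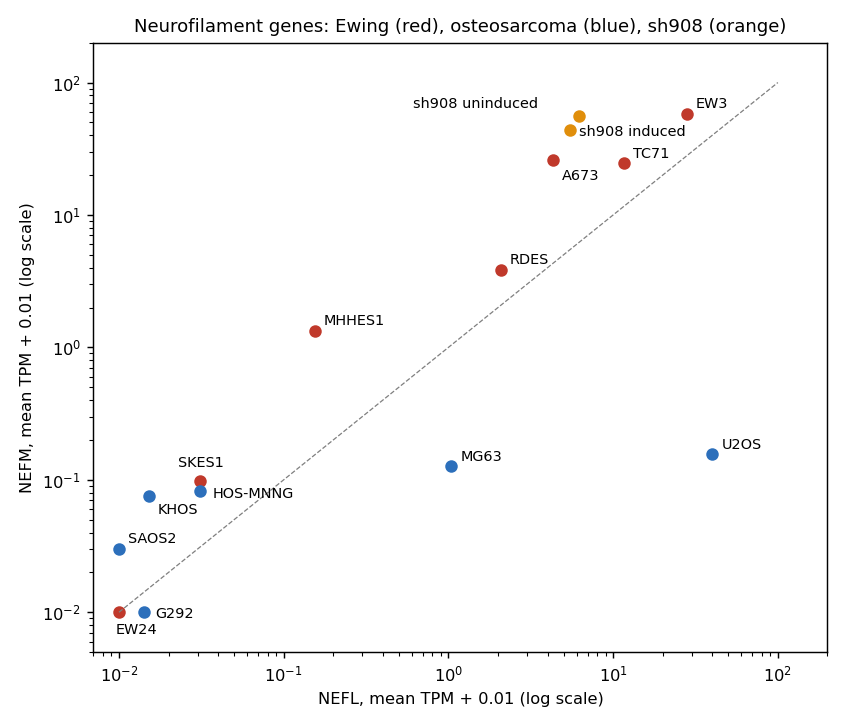
The plot sets mean NEFM against mean NEFL, both as TPM plus 0.01 on log axes, for each of 15 groups, and the dashed line marks equal levels. Ewing lines with neurofilament RNA (red) and sh908 cells (orange) lie above the line, and the osteosarcoma lines U2OS and MG63 (blue) lie far below it.

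TUBB3 encodes class III beta-tubulin, a microtubule subunit used as a neuronal marker that many tumours also make (chr16:89921925-89936097). The lowest, median and highest line means were 98.5, 122.8 and 367.9 TPM in the Ewing lines (MHHES1, EW3 and A673). They were 71.0, 243 and 630 TPM in the osteosarcoma lines, with SAOS2 lowest and G292 highest. The types shared the range from 98.5 to 367.9 TPM, MG63 and G292 lay above every Ewing line, and the log2 fold change of -0.88 (SE 0.49) was not called (edgeR FDR 0.259). TUBB3 made up 4.47% ± 2.06 (SD, n = 7 lines) of the TPM of 7 beta-tubulin genes in the Ewing lines and 8.07% ± 5.39 (SD, n = 6 lines) in the osteosarcoma lines, with 14.8% in both MG63 and G292. The rest was mostly TUBB, the tubulin of dividing cells. EW3 replicate 1 was low, at 52.4 TPM against 162 and 153 TPM in replicates 2 and 3, and TUBB was also lower in it, at 1804 against 3227 and 3092 TPM. Since the tubulin genes are similar in sequence, reads shared between them were divided by the authors' estimation.

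NES encodes nestin, the intermediate filament protein of neural progenitors, which is also found in mesenchymal and vascular cells (chr1:156668763-156677407). Among the Ewing lines A673 (65.1, 81.9 and 86.2 TPM) and SKES1 (74.1, 73.2 and 79.8 TPM) were high and did not differ beyond their spread, and EW3 (0.217, 0.325 and 0.375 TPM) was lowest. Among the osteosarcoma lines KHOS (43.7, 32.2 and 37.1 TPM) was highest and MG63 (0.246, 0.109 and 0.235 TPM) lowest. NES thus spanned over 2 orders of magnitude within each type. Its log2 fold change of 0.84 (SE 1.34) was not called (edgeR FDR 0.722). EW3, the line with the most SYP and NEFM, had the second lowest NES of the 13 lines.

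NGFR encodes the neurotrophin receptor p75, a marker of neural crest and Schwann cells (chr17:49495293-49515008). Its Ewing line means were 17.4 TPM in EW3, 42.3 at the median and 341 in SKES1, where the libraries read 330, 345 and 348 TPM. In the osteosarcoma lines they were 0.632 TPM in HOS-MNNG, 1.93 at the median and 30.02 in SAOS2. G292 (11.8, 31.4 and 33.4 TPM) and SAOS2 (38.4, 21.3 and 30.4 TPM) overlapped the lower Ewing lines, and the other 4 osteosarcoma lines stayed below all of them. The log2 fold change of 3.39 (SE 1.07) missed the threshold at an edgeR FDR of 0.0501. DESeq2 called it with an adjusted p of 0.00369, among 24.5% of all genes tested. It was also called when A673, EW3, G292 or SAOS2, or replicate 2 or 3 of every line, was left out of the edgeR fit, with an FDR of 0.0389 at the lowest, and it reached 0.102 when SKES1 was left out.

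S100B encodes a calcium-binding protein of astrocytes and Schwann cells (chr21:46598604-46605082). EW24 held 76.6, 70.4 and 68.7 TPM, which was 3610 of the 4113 S100B counts in the Ewing lines. SKES1 followed with 5.32, 6.18 and 5.97 TPM, EW3 with 2.68, 1.70 and 3.07 TPM, and A673 and MHHES1 held 3 and 2 counts in all. The count was 0 in all 18 osteosarcoma libraries. With that group set at a floor of 3 counts in total, the Ewing lines together were at least 1144-fold higher and, without EW24, at least 164-fold higher, a bound that covers counting error only. S100B did not pass the filter on low counts and has no test among the 9. With a count of 0 in every osteosarcoma library it could pass only through the Ewing lines, so a call in a fit where it passed adds no support.

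SOX10, the transcription factor that defines Schwann cells and melanocytes, had a line mean of at most 0.0255 TPM. GFAP, the filament protein of astrocytes, was at 0.0404 TPM on average in the Ewing lines and 0.272 TPM in the osteosarcoma lines. These genes were named after their values were seen. In EW24, 7 of the 15 genes listed for Schwann cells, glia and neural crest had at least 1 TPM. The 7 were TFAP2B (114.8 TPM), S100A4 (70.1 TPM), TFAP2A (14.3 TPM), PAX3 (13.6 TPM), S100A1 (6.19 TPM), S100A6 (5.89 TPM) and FOXD3 (1.54 TPM). The number with at least 1 TPM was 4 to 9 over the Ewing lines and 4 to 8 over the osteosarcoma lines.

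NCAM1 encodes the neural cell adhesion molecule CD56 (chr11:112961420-113278436). Its highest levels were in osteosarcoma lines: U2OS (45.7, 40.4 and 34.5 TPM), SAOS2 (33.2, 32.9 and 30.95 TPM) and MG63 (30.9, 27.2 and 28.4 TPM). The HOS-derived lines were at the other end, with 0.854, 1.13 and 0.606 TPM in HOS-MNNG and 0.0346, 0.0133 and 0.0220 TPM in KHOS. Among the Ewing lines EW3 was highest (15.04, 12.8 and 11.7 TPM) and EW24 lowest (0.401 TPM in each library). A log2 fold change of -2.20 (SE 1.05) was not called (edgeR FDR 0.181).

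Of the 31 NCAM1 transcripts in the tables, one of 5789 nucleotides carried 52.7% of NCAM1 TPM on average and one of 5819 nucleotides 22.9%, over the 11 lines with at least 30 counts of the gene in each library. A shorter transcript of 4646 nucleotides carried 17.6% ± 7.34 in G292, 15.03% ± 1.37 in MG63, 15.4% ± 0.740 in SAOS2 and 9.73% ± 0.869 in U2OS (SD, n = 3 libraries). In HOS-MNNG, where NCAM1 was low, it carried 5.10% ± 4.73, a spread that reaches the Ewing values. It carried at most 1.64% in any Ewing line measured, 1.64% ± 0.917 in A673. SAOS2 stood out for the 5819-nucleotide transcript, at 4.07% ± 2.73 against 34.9% to 36.9% in the other high osteosarcoma lines. These shares come from the authors' estimation of reads that fit several transcripts, and were not tested.

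ENO2 encodes neuron-specific enolase, a glycolytic enzyme of neurons and neuroendocrine cells that many tumours also make (chr12:6914580-6923697). The lowest, median and highest Ewing line means were 19.1 TPM in EW24, 75.4 in SKES1 and 239 in RDES, whose libraries read 215, 237 and 266 TPM. The osteosarcoma means were 17 TPM in KHOS, 34.04 at the median and 88.9 in U2OS. RDES, EW3 and MHHES1 lay above every osteosarcoma line, while A673, EW24 and TC71 lay among the lower ones. A log2 fold change of 1.02 (SE 0.56) was not called (edgeR FDR 0.246). ENO2 was a small part of enolase RNA throughout, at 3.49% ± 3.74 (SD, n = 7 lines) of the summed TPM of ENO1, ENO2 and ENO3 in the Ewing lines and 1.27% ± 0.979 (SD, n = 6 lines) in the osteosarcoma lines. The share was highest in EW3, at 9.61%, and ENO1, the enolase of all tissues, was at 1838 to 5019 TPM.

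The number of the 10 markers with a mean of at least 1 TPM was 7 to 10 in the Ewing lines and 4 to 7 in the osteosarcoma lines, with all 10 in TC71. When the 13 line means of a marker were put in order, library ranges of neighbours overlapped in 3 of 12 pairs for NCAM1 and in 10 of 12 for CHGA, so most steps in the NCAM1 order, and few in the CHGA order, exceeded the spread between libraries. Within the Ewing lines NEFL and NEFM ranked against NGFR (Spearman rho -0.857 and -0.893 over 7 lines), a description over few lines.

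Other neural genes were read from lists, in the same comparison. Of 14 tested genes of the neuronal cytoskeleton and its RNA-binding proteins, 5 were higher and 0 lower in the Ewing lines, with a median log2 fold change of 2.12. Among them MAPT, which encodes the microtubule protein tau, was at 83.2 ± 44.5 TPM (SD, n = 7) against 0.373 ± 0.324 TPM (SD, n = 6), with an edgeR log2 fold change of 7.67 and no overlap between lines. The others, named after their values were seen, were DCX and TUBB4A of neuronal microtubules and ELAVL3 and ELAVL4, which bind RNA in neurons. Their line means overlapped between the types. Of 14 tested genes of granules and synaptic vesicles, 2 were higher and 0 lower, and their median was -0.54. PCSK2, a protease that matures peptide hormones, was at 52.3 ± 29.1 against 0.0831 ± 0.188 TPM (log2 fold change 9.43 by edgeR). SYT1, a calcium sensor of vesicle release, was the other called gene and was named after its values were seen.

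Of 14 adhesion and neurotrophin genes, 1 was higher and 1 was lower. The higher gene was NCAM2, a relative of NCAM1 whose line means overlapped between the types and which was named after its values were seen. The lower gene, BDNF, a neurotrophin that binds the receptor from NGFR, was at 0.135 ± 0.252 TPM in the Ewing lines and 10.3 ± 5.71 TPM in the osteosarcoma lines (log2 fold change -6.21 by edgeR), with no overlap. Of 8 neural progenitor genes, 3 were higher and 0 lower, with a median of 2.54. SOX2, a transcription factor of neural stem cells, was at 50.1 ± 20.3 against 1.77 ± 1.76 TPM and did not overlap. The others were PROM1 and NOTCH1, named after their values were seen.

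In the list of Schwann cell, glia and neural crest genes, 1 of 13 was higher and 4 were lower, with a median of -0.59. TFAP2B, a neural crest transcription factor, was the higher gene, at 28.3 ± 42 against 0.0541 ± 0.0494 TPM. S100A6 and S100A4, which belong to the S100 family of S100B, were among the lower genes, and neither is specific to glia. S100A6 was at 31.7 ± 36.2 TPM in the Ewing lines and 7009 ± 6210 TPM in the osteosarcoma lines (log2 fold change -8.19 by edgeR), the opposite order to that of S100B. The 2 other lower genes, MBP and GFAP, named after their values were seen, were near or below 2 TPM on average in both types. The summed level of the list was 86.3 to 271 TPM in the Ewing lines and 809 to 18859 TPM in the osteosarcoma lines. Without S100A6 and S100A4 the sums overlapped, at 41.9 to 151.6 TPM and 45.1 to 93.3 TPM. Of 7 tested neural transcription factors, NKX2-2 alone was called, and REST was at 7.04 to 20.3 TPM in the lines with a log2 fold change of -0.18 (edgeR FDR 0.648).

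**Figure D4:**
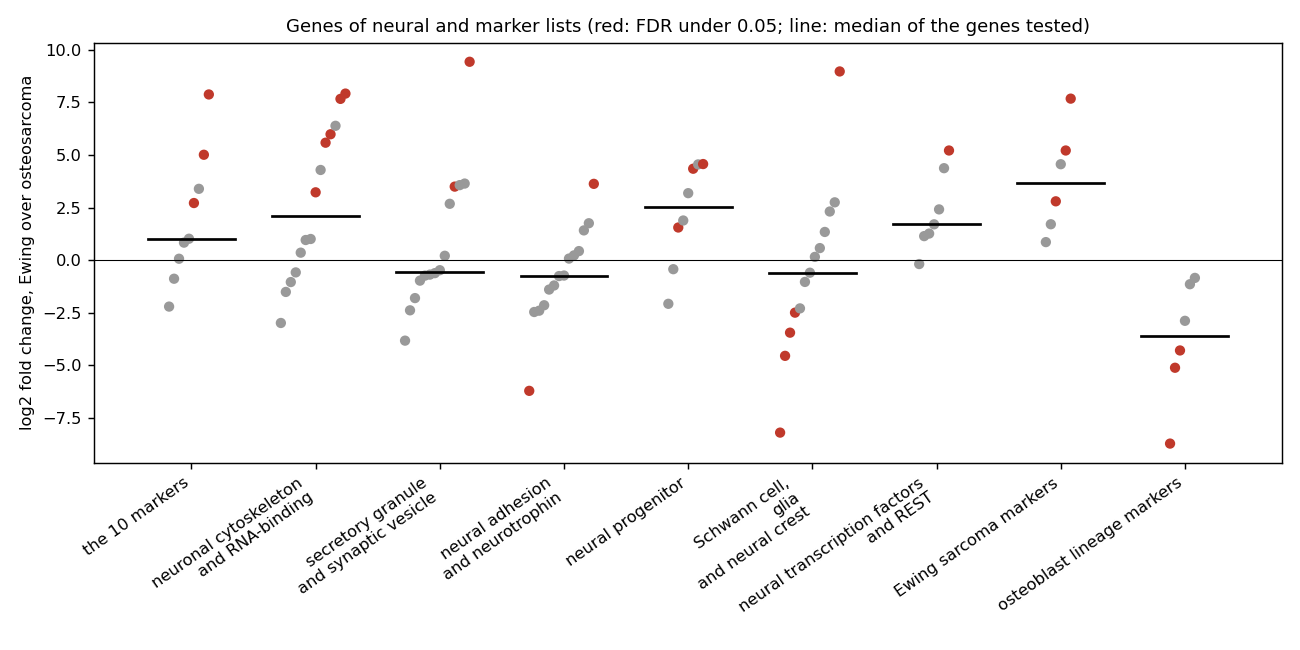
Each point is the edgeR log2 fold change of 1 tested gene, Ewing over osteosarcoma lines, by list, and a black line marks the median of the list. Red points passed an FDR of 0.05, as did 5 of 14 cytoskeletal genes and 2 of 14 granule and vesicle genes.

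The genes whose line means most resembled those of each marker were found by Pearson correlation of log2(TPM + 1) over the 13 lines, among 15705 genes with a highest line mean of at least 5 TPM, which came from the same libraries. The closest were DCLK1 for NCAM1 (0.927), WDR11 for ENO2 (0.921), RENBP for SYP (0.945), NR0B1 for CHGA (0.918) and IER2 for TUBB3 (0.870). For the others they were INPP5J for NEFL (0.876), DKK2 for NEFM (0.916), MTFP1 for NES (0.861), SLC7A8 for NGFR (0.960) and POM121 for S100B (0.936). After these came, for SYP, SLC35F1 (0.937) and CAMKV (0.929), and for S100B KRT12 and KRT27, keratin genes with their highest line mean in EW24, as for POM121. NR0B1, the gene most like CHGA, is a marker of Ewing sarcoma, and reached 195.9 TPM in EW3. For the rest the next genes were PI4KA and MRTFA for NCAM1, HOXC-AS2 and PURG for ENO2, LOC105379340 and LOC105370528 for CHGA, FKBP1A and MBD2 for TUBB3, TSPEAR-AS1 and INPP5D for NEFL, ZC3H13 and ADGRG2 for NEFM, CNDP2 and CDK5RAP1 for NES, and GTF2I and TMEM222 for NGFR.

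Uninduced sh908 cells were compared with parental A673 to see how the carrier cells stood before doxycycline. CHGA and NEFM were higher in the carrier cells and the other markers tested were not called. CHGA went from 7.15, 5.48 and 7.42 TPM in the parental libraries to 13.02, 17.8 and 13.1 TPM, with no overlap (log2 fold change 1.64, SE 0.32, edgeR FDR 0.0222). NEFM went from 27.4, 22.5 and 28.3 TPM to 67.6, 69.1 and 32.2 TPM, also with no overlap (log2 fold change 1.66, SE 0.43, edgeR FDR 0.0453). NEFL was at 4.66, 3.97 and 4.31 TPM in the parental and 6.22, 7 and 5.34 TPM in the carrier libraries but was not called (edgeR FDR 0.0531). Of 15776 genes tested, 15.1% were called and 8.72% were called higher, beside 2 of 9 markers called higher and 0 lower.

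These 2 calls depended on single libraries. When any 1 parental library, or uninduced replicate 1 or 2, was left out, 0 of the 9 markers were called. When uninduced replicate 3 was left out, all 9 were called higher, among 62.3% of all genes tested, with log2 fold changes from 0.30 for TUBB3 to 2.05 for NEFM. The number of genes called ran from 2 to 10199 with 1 library left out. REST was lower in carrier replicates 1 and 2 than in any parental library, and transcripts exceeded their effective length by a median of 140.47 to 157.72 bases in the carrier libraries and 179.55 to 189.83 bases in the parental ones, a measure of fragment length. The part of either in these results was not tested. The scale mattered as well: the median gene tested was 0.41 lower (log2) in the carrier cells by mean TPM but 0.01 higher by edgeR. On the TPM scale 7.75% of genes were higher and 38.8% lower with no overlap between the libraries, beside 3 markers higher (CHGA, NEFL and NEFM) and 1 lower, TUBB3 (328, 405 and 370 TPM in parental cells and 308, 254 and 157 TPM in carrier cells). The edgeR log2 fold change of TUBB3 was -0.05. The mean TPM of ENO2, SYP and NGFR was also lower in the carrier cells while their edgeR fold changes were positive, so no direction is given for these 4.

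Other neural genes called in this comparison were PRPH, which encodes peripherin of peripheral nerve filaments, at 6.66 ± 1.28 TPM in parental cells and 31.2 ± 9.09 TPM in carrier cells (SD, n = 3), MAPT (19.8 ± 1.79 and 37.6 ± 2.91 TPM), GAP43 of growth cones (70.9 ± 9.93 and 105.9 ± 10.6 TPM), TUBB4A (11.1 ± 2.02 and 23.7 ± 2.01 TPM) and SYN1 of synaptic vesicles (1.84 ± 0.148 and 4.19 ± 0.503 TPM). Their edgeR FDR values were between 0.00968 (MAPT) and 0.0274 (GAP43). TFAP2B and NKX2-2 were also called higher, as were BEX3, MSI1, SOX9 and ENO3, whose libraries overlapped. SORT1, which encodes a co-receptor of p75, and PROM1 were called lower, as were NEFH, the heavy neurofilament gene, and PECAM1, both under 1 TPM. Those that overlapped or were under 1 TPM were named after their values were seen. SORT1 fell from 50.1 ± 2.56 to 18.3 ± 7.32 TPM, with an edgeR log2 fold change of -1.05.

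The induced and uninduced sh908 cells were compared to ask what knockdown of KCNN1 did to the markers, and no marker was called. edgeR called 0% of 14250 genes (94 had an unadjusted p under 0.05, and DESeq2 called 2), so the fit had 0 calls for any gene. ENO2 was the 1 marker whose libraries did not overlap, with 18.2, 17.7 and 21.1 TPM in the uninduced libraries and 15.1, 16.5 and 11.2 TPM in the induced ones, a pattern in the same direction that 1.46% of genes showed. The log2 fold change was -0.33 (SE 0.31, not called by edgeR). The same-numbered libraries deviated together, and with the replicate number as a block 73 genes (0.512%) were called, again with 0 of 9 markers. Without replicate 3 of both groups 28 genes (0.203%) were called and no marker. Doxycycline and knockdown cannot be told apart in these libraries, since no library analysed here is from cells given the drug without the hairpin.

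Within same-numbered pairs, the TPM of 5 markers lay on one side in all 3, and none of the 9 tested passed with the block. The share of all genes that lay on one side in all 3 pairs was not counted. The 5 are therefore a description and not a result about the markers. TUBB3 was 1.21, 1.41 and 1.30 times its uninduced level in replicates 1, 2 and 3, with a blocked log2 fold change of 0.41 (SE 0.09, edgeR FDR 0.0860). NGFR was at 1.36, 1.69 and 1.01 times (blocked edgeR FDR 0.144), all but level in replicate 3. NCAM1 was lower in all 3 pairs, at 0.604, 0.882 and 0.912 times, as was ENO2, at 0.829, 0.932 and 0.529 times (blocked edgeR FDR 0.435 and 0.278). S100B was also lower in each pair, from 29 counts in the uninduced and 16 in the induced libraries. CHGA, NEFL, NEFM and NES were lower in pairs 1 and 2 and higher in pair 3, and SYP was the reverse. Replicate 3 thus differed from the others in direction for 5 of the 10 markers.

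**Figure D5:**
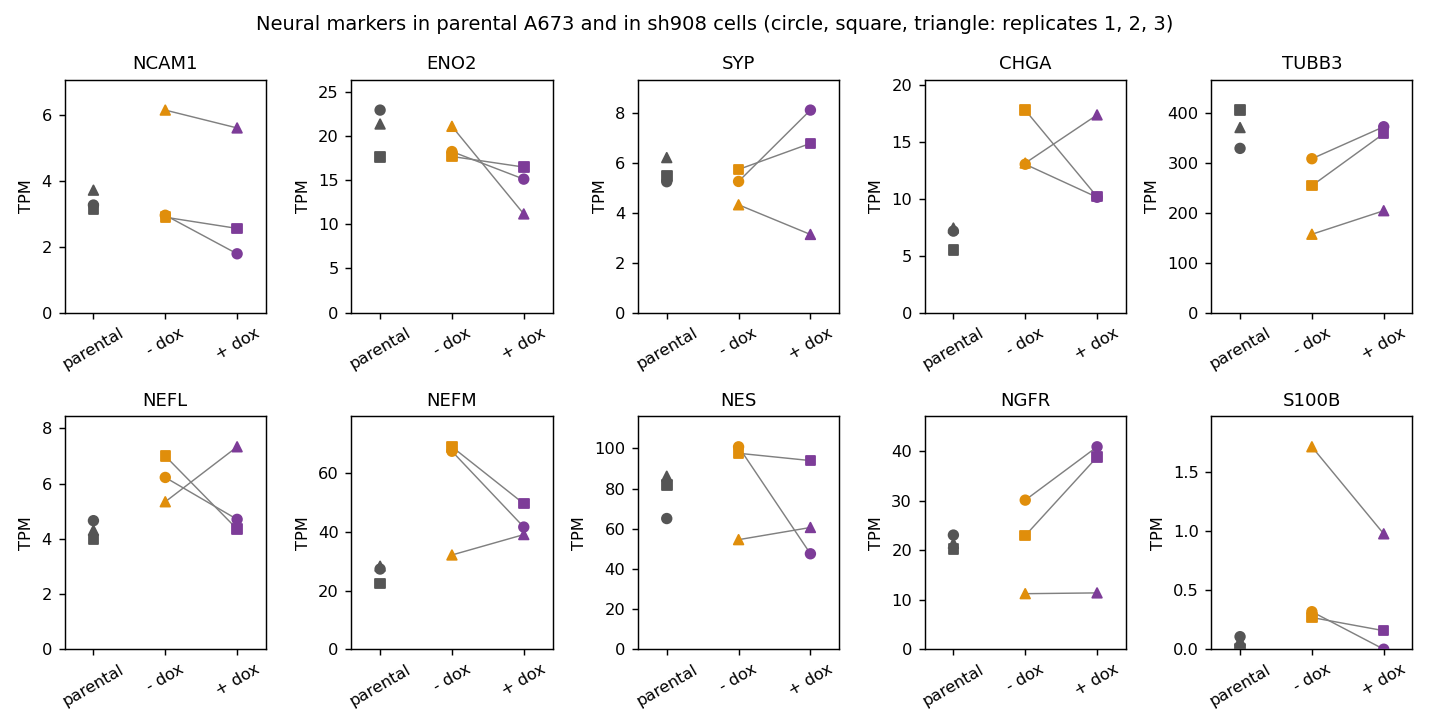
TPM of each marker is shown for parental A673, uninduced sh908 (- dox) and induced sh908 (+ dox) libraries on axes from 0, with a symbol per replicate and lines joining same-numbered sh908 libraries. Replicate 3 (triangles) sits apart in TUBB3, NGFR, NCAM1 and S100B, and ENO2 alone shows no overlap between the sh908 groups.

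Among the list genes 2 were called with the block: 1 of 9 tested in the cytoskeletal list and 1 of 12 in the granule and vesicle list. Over all genes tested the share was 0.512%. TUBB4A, a neuronal beta-tubulin, was at 23.7 ± 2.01 TPM without and 13.8 ± 3.32 TPM with doxycycline (SD, n = 3 libraries). Its log2 fold change was -0.77 (SE 0.11, edgeR FDR 0.0162). VGF, a neuropeptide precursor of dense-core granules, was at 13.8 ± 10.03 and 47.1 ± 36.8 TPM, a wide spread between libraries. Its log2 fold change was 1.68 (SE 0.13, edgeR FDR 0.00075). Neither was called without the block.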

How the data were processed

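Poly(A) RNA libraries (stranded mRNA kit, per the labels' protocols) were quantified by the authors with kallisto 0.46.2 after trimming with fastp 0.19.5 against a human reference (hg38), per the submitters' processing notes. Per the file headers, each deposited table gives a transcript's length, effective length, estimated count (an expected count) and TPM. The order of the steps is not given in the sources used here.

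Transcript identifiers were matched to RefSeq genes of GRCh38.p14 (169960 of 177816), and estimated counts and TPM were summed by symbol. Unmatched transcripts, with 0.926% to 1.60% of counts, were left out. Gene sums were rounded to whole numbers and tested with edgeR 4.0.16 (quasi-likelihood, robust, filterByExpr, TMM; R 4.3.3). For the tumour type, the 3 libraries of a line were summed and the 13 lines were the samples. For the A673 groups each library was a sample. An FDR under 0.05 over all genes tested was a call. Alternatives were DESeq2 1.42.0, other size factors, no filter, each line or replicate left out, a replicate block, HOS-MNNG and KHOS merged, and exact permutation of log2(TPM + 1), with a pseudocount of 0.1 in place of 1 as well. Left-out EW3 replicate 1 and left-out sh908 replicates 3 were added after seeing the data.

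On counts simulated with the tumour type design, over 21653 genes, 48% of genes changed by 2 on the log2 scale and 82.8% of those changed by 4 were recovered. Same-numbered sh908 libraries deviated together from their group means (r 0.776, 0.706 and 0.905 over genes), so by the rule used here (every r over 0.1) the numbers were taken to pair induced and uninduced libraries. Replicates 1 and 2 correlated across numbers nearly as strongly (r 0.625 and 0.697), so mainly replicate 3 is set apart. By rule, named list genes were called, had at least 1 TPM in the higher group and groups that did not overlap; others are said to be named after their values were seen. Intervals and floors cover counting error only. Promoters came from RefSeq (GRCh38.p14). The markers and lists were chosen with earlier results of these data known.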

Additional observations from a re-analysis of the deposited data

Results flagged for a closer look

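NEFL in U2OS, at a mean of 40.02 TPM, was far from the other osteosarcoma lines, the next of which was MG63 at 1.03 TPM. The gap was 0.809 of the range of the 6 lines by Dixon's ratio, computed on log2(TPM + 1), above the critical value of 0.625. This was 1 of 19 groups of line means examined, and chance gives such a gap in about 1 in 20 groups. All 3 U2OS libraries were high (40.6, 42.9 and 36.6 TPM), from 6080 counts, while NEFM in the same libraries had 19.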

How the results depend on the processing

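For the tumour types, the 3160 calls became 5399 with DESeq2 and 16221 with a replicate block over 39 libraries and line means held fixed, and 2296 to 3227 when a line or replicate was left out. The 3 markers called higher became 3 to 5 when a line or replicate was left out, and 1 by permutation with either pseudocount. With the block 5 markers were called higher and 2 lower, among 16221 of 21998 genes. That fit takes the libraries of a line as replicates. Its error is the spread between them and not between lines, so its calls are no support for a difference between tumour types. The log2 fold change of NEFL, 0.07, ran from -0.83 without EW3 to 4.76 without U2OS. It was -0.27 without TC71, -0.19 without G292, -0.20 without HOS-MNNG, -0.20 without KHOS, -0.16 without MG63, -0.21 without SAOS2, -0.014 without replicate 3 of every line and -0.20 with HOS-MNNG and KHOS merged. SYP, CHGA and NEFM stayed called in every edgeR fit with a line or replicate left out, at an FDR of 0.0326 or less.

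With doxycycline, the count of 0 became 73 with the replicate block, 2 with DESeq2, 0 with any 1 replicate left out, 5, 7 and 74 with the block and pair 1, 2 or 3 left out, and 28 without replicate 3 of both groups. SYP became -0.068 without induced replicate 1 (0.71 without induced replicate 3) and -0.088 with the block and without pair 1, CHGA 0.055 without uninduced replicate 2 (-0.51 without uninduced replicate 3) and 0.14 with the block and without pair 2, NEFL 0.11 with the block and without pair 2, and NES 0.066 with the block and without pair 1. None was called. The block changed no other marker call in this comparison.

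For uninduced against parental cells, the 2388 calls became 319 with the replicate block, 4169 with DESeq2 and 2 to 10199 with a library left out. The 2 markers called became 0 with the block, 4 with DESeq2 and 0 to 9 with a library left out. Of the list genes given with TPM values there, PRPH and MAPT stayed called with the block, and GAP43 (FDR 0.0729), TUBB4A (0.0505), SYN1 (0.0626) and SORT1 (0.0522) did not. TUBB3 ran from -0.34 without uninduced replicate 1 to 0.30 without uninduced replicate 3, and was 0.077 without parental replicate 2. Same-numbered libraries of these groups did not deviate together (r -0.04, 0.14 and 0.22). The causes were not tested. CHGA in osteosarcoma lines, NEFM in osteosarcoma lines and S100B in A673 and MHHES1 rest on few counts, and an order among them was not detectable at this depth.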

Other observations

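NEFH, the heavy neurofilament chain, was not among the markers and was singled out after its values were seen. Line means were 253.5 TPM in TC71, 167.1 TPM in SKES1, 102.6 TPM in EW3, 43.7 TPM in RDES and 13.1 TPM in MHHES1, against 0.334 TPM in A673 and 0.0820 TPM in EW24. The highest osteosarcoma line was SAOS2 at 6.18 TPM, and the other 5 were at 0.304 TPM or less. The log2 fold change between the types was 6.39 (SE 2.06), not called by edgeR (FDR 0.0535). The 3 neurofilament genes thus did not share one order of lines: SKES1 had NEFH with almost no NEFL or NEFM, A673 had NEFL and NEFM with little NEFH, and U2OS had NEFL alone (NEFH 0.304 TPM).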
